A study of Homo sapiens with 4 samples.

Results

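The genes described here encode 10 chaperones and disulfide isomerases of the endoplasmic reticulum (ER): HSP90B1, HSPA5, HYOU1, CALR, CANX, PDIA3, PDIA4, PDIA6, P4HB and SDF2L1. Their members were all probe sets whose only gene symbol in the platform annotation is one of these names, which gave 26 of the 54675 probe sets on the array. Of these, 6 have IDs ending in _x_at and 9 in _s_at, classes that can detect more than one transcript, and 11 belong to neither class. Another 2 probe sets list HSP90B1 together with a microRNA gene and were left out. RNA came from FlpIn T-Rex HEK293 cells, a human embryonic kidney line with a stably integrated, doxycycline-induced transgene that encodes FlagHA-tagged FMRP, the RNA-binding protein lost in fragile X syndrome. All samples came from cells induced with doxycycline at 1 µg/ml for 16 h, so the lysates carried the tagged protein as well. The lysate group was total RNA of 2 cleared lysates, and the IP group was RNA from 2 anti-FLAG M2 immunoprecipitates (IPs) of the tagged FMRP washed at 300 mM KCl, each on its own Affymetrix array. The comparison asks which mRNAs FMRP held in larger or smaller share than the starting lysate, and no mock IP is among these samples. The labels name a stable cell line and do not say whether it is 1 clone, or whether replicates came from separate cultures, so p-values measure only the spread between these samples, which may be technical.

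Proteins that enter the secretory pathway fold in the ER with the help of these chaperones. HSPA5 (BiP) is the ER member of the HSP70 family, HYOU1 is its nucleotide exchange factor, HSP90B1 (GRP94) is the ER member of the HSP90 family, and SDF2L1 is a small partner of HSPA5 and its J-protein. CALR and CANX are lectins that hold newly made glycoproteins, and PDIA3, PDIA4, PDIA6 and P4HB form and rearrange disulfide bonds. Many of these genes are induced together by the unfolded protein response through ER stress elements in their promoters, which are bound by ATF6 and XBP1.

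The promoters are shown because they carry a sequence feature that most of these genes share. The element was described in promoters of ER chaperone genes such as these, so its share among them is a description. RefSeq promoter windows of GRCh38.p14, 250 bases before to 50 bases after each gene's start, matched 9 of the 10 genes, in 14 windows. The ER stress element (ERSE, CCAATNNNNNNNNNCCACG) was searched on both strands, as were its shorter form ERSE-II (ATTGGNCCACG) and the XBP1 element UPRE (TGACGTGG). ERSE was found in 5 of the 9 genes, against 0.0916% of the 27305 gene symbols with a window and 0.0769% of all 35116 windows. The capitals mark the match, given on the gene's strand:
HSP90B1, plus strand, chr12:103930211-103930239: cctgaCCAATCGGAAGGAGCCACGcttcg
HSP90B1, plus strand, chr12:103930316-103930344: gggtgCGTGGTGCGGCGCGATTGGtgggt
HSPA5, minus strand, chr9:125241386-125241414: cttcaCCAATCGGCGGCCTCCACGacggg
CALR, plus strand, chr19:12938379-12938407: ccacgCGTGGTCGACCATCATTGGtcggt
CANX, plus strand, chr5:179698773-179698801: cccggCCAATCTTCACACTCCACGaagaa
PDIA6, minus strand, chr2:10812848-10812876: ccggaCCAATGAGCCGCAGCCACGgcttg

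The second HSP90B1 match and the CALR match run on the opposite strand to the gene. The matches began 194 and 89 bases upstream of the start in HSP90B1, 66 in HSPA5, 225 in CALR and 86 in PDIA6. CANX has 4 windows, and its single match lay 9, 151 or 189 bases upstream of the start in those that held it. ERSE-II was found in 2 other members, against 0.0696% of gene symbols:
HYOU1, minus strand, chr11:119057269-119057289: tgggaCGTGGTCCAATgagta
HYOU1, minus strand, chr11:119057375-119057395: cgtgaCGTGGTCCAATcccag
SDF2L1, plus strand, chr22:21642109-21642129: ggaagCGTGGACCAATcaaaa

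The HYOU1 matches lay 79 and 185 bases upstream and the SDF2L1 match 188 bases upstream, all on the strand opposite to the gene. UPRE was found once, in HYOU1, where it overlaps the upstream ERSE-II match, against 0.927% of gene symbols. In all, 7 of the 9 genes held ERSE or ERSE-II. PDIA4 and P4HB held neither in these windows, and PDIA3 has no window in the table. These matches describe letters, not binding, and the arrays measured RNA.

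The arrays were alike within each group, with Pearson's r across the 13157 genes tested of 0.993 for the 2 lysates and 0.992 for the 2 IPs. Across groups r was 0.873 to 0.903; genes are not independent replicates. The number of arrays limits the precision, and an exact two-sided permutation test of 2 against 2 arrays cannot give a p under 0.333. Of 7 markers of the HEK293 line, 6 lay above the median of all probe sets on both lysate arrays and NEFM did not (lysate mean 3.73). Of 9 markers of other cell types, 4 lay above it, with EPCAM at 11.27 and the others from 5.14 to 7.15. The summed log2 signal of these 9 markers was 48.47 and 46.79 in the lysates and 48.95 and 49.87 in the IPs. That of the HEK293 markers was 63.74 and 64.45 in the lysates and 65.44 and 64.65 in the IPs. The array's 5′, middle and 3′ control probe sets for the ACTB and GAPDH mRNAs separated the groups. The 3′ minus 5′ difference for ACTB was 1.37 and 1.34 in the lysates and 3.02 and 2.96 in the IPs (log2). For GAPDH it was 0.19 and 0.19 in the lysates and 0.94 and 1.03 in the IPs. The 5′ signal was thus lower relative to the 3′ signal on both IP arrays, as the plot of these control probe sets shows. Where each chaperone probe set lies along its mRNA is not given in the sources used here, and the part of this difference in the results that follow was not tested.

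**Figure D1:**
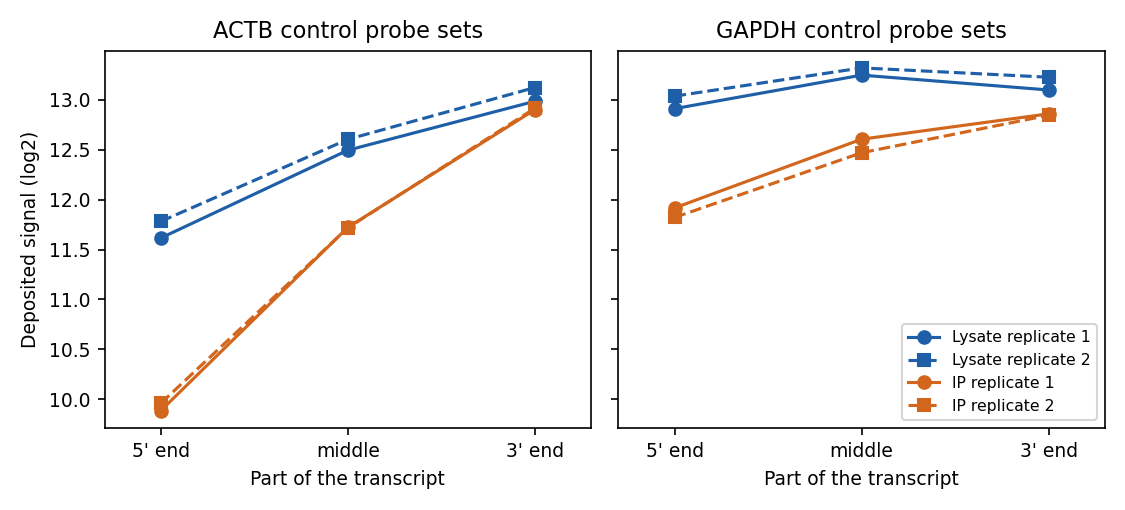
Deposited log2 signal (vertical axis) of the control probe sets at the 5′ end, middle and 3′ end (horizontal axis) of the ACTB and GAPDH mRNAs, with 1 line per array. The ACTB lines of the IP arrays start at 9.88 and 9.96 at the 5′ end, below the lysate arrays at 11.62 and 11.78, and come close to them at the 3′ end.

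ER chaperone mRNAs were mostly over-represented in the FMRP IP, and SDF2L1 was under-represented. Of the 10 genes, each represented by its brightest probe set, 7 were higher in the IP, SDF2L1 was lower, and CANX and PDIA3 did not pass (limma, adjusted p of at most 0.05 over all genes). Among all 13157 genes tested, 35% were called higher and 28.8% lower. The 10 genes were chosen with earlier results of these data known, so their counts and median beside those of all genes are a description. The 10 changes ran from -1.10 to 1.85 on the log2 scale with a median of 0.70, beside a median of 0.08 and an interquartile range of -0.48 to 0.61 over all genes. HSP90B1 and HSPA5 were at least 2-fold higher, as were 12.5% of all genes, and SDF2L1 was at least 2-fold lower, as were 12.8%. The deposited scale sets these directions in part. The array's hybridization control probe sets had a median 0.48 higher in the IPs; with arrays centred on them, the median change over all genes was -0.40 and 24.7% of calls were higher in place of 54.9%. On that scale 15.9% of genes were higher and 48.5% lower, while HSP90B1, HSPA5 and PDIA4 were the 3 chaperone genes called higher and SDF2L1 the 1 called lower.

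**Figure D2:**
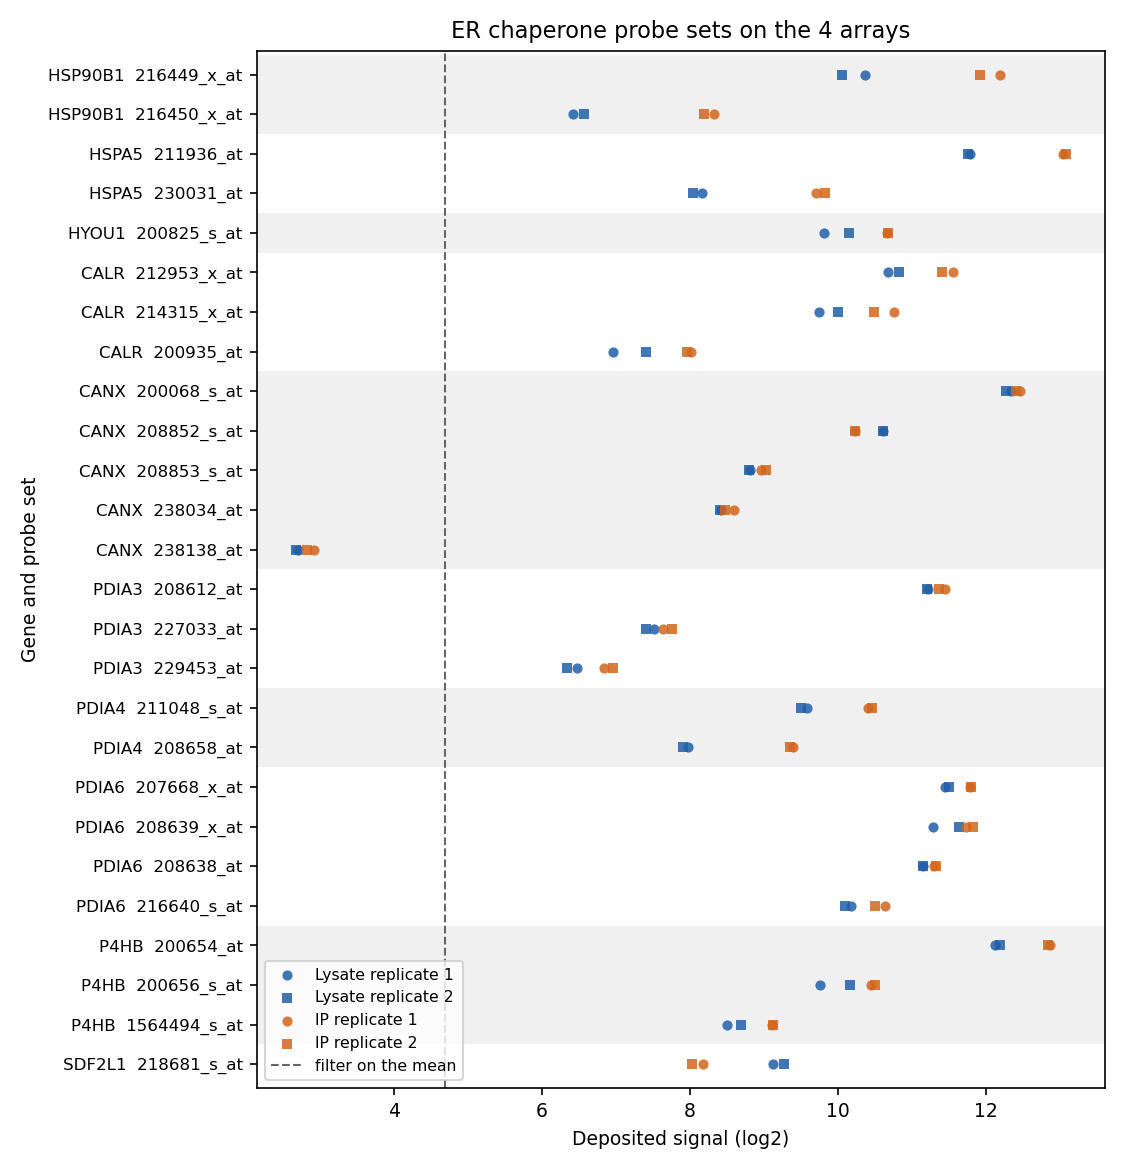
Deposited log2 signal (horizontal axis) of the 26 ER chaperone probe sets (vertical axis) on the 2 lysate arrays and the 2 IP arrays, with 1 point per array; the dashed line is the filter on the mean signal. The IP points of HSP90B1, HSPA5 and PDIA4 lie well to the right of the lysate points, those of SDF2L1 lie to the left, and those of CANX and PDIA3 lie close to them.

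At the level of single probe sets, 25 of the 26 reached a mean log2 signal of 4.70, where the median over the whole array lies, and entered the fit. The remaining CANX probe set, 238138_at, lay between 2.68 and 2.93 and was not tested. Of the 25, 15 were called higher, 2 lower and 8 did not pass, where 33.2% of all 23516 probe sets tested were higher and 28.3% lower. Both IP arrays lay above both lysate arrays for 23 of the 25 and below them for 2, where 44% and 37.3% of all probe sets did so. These counts are on the deposited scale, and probe sets of the same gene are not independent. With hybridization control centring 6 chaperone probe sets were called higher and 2 lower, where 15.9% of all genes were higher and 48.5% lower. In 9 of the 10 genes all probe sets, called or not, had a difference of 1 sign; HYOU1 and SDF2L1 have a single probe set, and CANX was the exception.

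The HSP90 and HSP70 chaperones of the ER lumen had the 2 largest changes of the 10 genes. HSP90B1, which assists the folding of integrins and Toll-like receptors, stood at 10.37 and 10.06 in the lysates and at 12.19 and 11.93 in the IPs (probe set 216449_x_at). Both IP arrays were far above both lysate arrays. The IP signal was 3.59 times the lysate signal (log2 change 1.85 ± 0.15 SE with 2 arrays a group; adjusted p = 5.2e-05, limma), a change above 98.7% of all genes. Its other probe set, 216450_x_at, stood at 6.43 and 6.57 in the lysates and at 8.33 and 8.19 in the IPs, a change of 1.76. Both of these HSP90B1 probe sets are of the class that can cross-hybridize, and no unique one was among the members. The 2 probe sets that list HSP90B1 together with a microRNA gene were left out and are not described here.

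HSPA5, the central ER chaperone that also restrains the stress sensors, stood at 11.79 and 11.77 in the lysates and at 13.04 and 13.09 in the IPs (probe set 211936_at). Its IP signal was 2.44 times that of the lysate (log2 change 1.29 ± 0.11 SE, limma adjusted p = 6.2e-05), above 93.3% of all genes. The spread within each group, an SD of 0.02 and 0.03, was small beside this difference. Its second probe set, 230031_at, moved further, from 8.17 and 8.05 to 9.71 and 9.84, a change of 1.67. Neither HSPA5 probe set is of a class that can cross-hybridize.

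HYOU1, a large HSP70-related protein that recharges HSPA5 with ATP, stood at 9.81 and 10.16 in the lysates and at 10.67 and 10.69 in the IPs. The lysate arrays differed by more than the IP arrays did, and the groups did not overlap. The IP exceeded the lysate 1.62-fold for HYOU1 (log2 change 0.69 ± 0.14 SE, limma adjusted p = 0.0035), a change that was 0.52 without lysate replicate 1 and 0.86 without lysate replicate 2. With hybridization control centring its change was 0.21 and did not pass (adjusted p = 0.25). Its only probe set, 200825_s_at, is of the _s_at class.

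SDF2L1 went the other way. It stood at 9.13 and 9.27 in the lysates and at 8.18 and 8.03 in the IPs (probe set 218681_s_at), so that both IP arrays were below both lysate arrays. The lysate signal exceeded the IP signal 2.14-fold (log2 change -1.10 ± 0.13 SE, limma adjusted p = 1.8e-04), and 11.2% of all genes had a change as low or lower. The fall passed with each array left out in turn, between -1.17 and -1.02, and was -1.58 with hybridization control centring. SDF2L1 has no other probe set, so the fall rests on a single one.

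The calnexin and calreticulin pair, lectins with like binding sites of which CANX is anchored in the membrane and CALR is soluble, fell on both sides of the threshold: CALR passed the test and CANX did not. CALR stood at 10.69 and 10.83 in the lysates and at 11.56 and 11.41 in the IPs (probe set 212953_x_at), with no overlap. This rise was 1.65-fold (log2 change 0.73 ± 0.12 SE, limma adjusted p = 0.0013). The other CALR probe sets changed by 0.75 (214315_x_at) and 0.80 (200935_at, the unique one), so the 3 probe sets were within 0.1 of each other.

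CANX stood at 12.35 and 12.28 in the lysates and at 12.47 and 12.41 in the IPs (probe set 200068_s_at). Its change of 0.13 had a 95% interval of -0.14 to 0.39 and did not pass (limma adjusted p = 0.364). Of its other probe sets, 208853_s_at and 238034_at had changes of 0.19 and 0.12 that did not pass, and 208852_s_at fell by 0.38, from 10.62 and 10.61 to 10.24 and 10.24 (adjusted p = 0.0258 over all probe sets). CANX was therefore the only one of the 10 genes with probe sets on both sides of 0. The fall of 208852_s_at did not pass at a threshold of 0.01, and with no filter only 1 chaperone probe set was lower. The interval of the CANX change (upper bound 0.39) and that of the CALR change (lower bound 0.44) did not overlap, but the difference between these genes was not tested. With hybridization control centring the CALR change was 0.25 (adjusted p = 0.202) and the CANX change -0.35 (adjusted p = 0.0797), and neither passed.

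The disulfide isomerases, which share thioredoxin-like domains, were graded from PDIA4 to PDIA3. PDIA4 (ERp72) stood at 9.58 and 9.51 in the lysates and at 10.42 and 10.47 in the IPs (probe set 211048_s_at), and rose 1.86-fold (log2 change 0.90 ± 0.12 SE, limma adjusted p = 3.1e-04). Its unique probe set, 208658_at, moved from 7.98 and 7.91 to 9.39 and 9.36, a change of 1.43. The 95% intervals of the 2 probe sets in the probe set fit, 0.62 to 1.18 and 1.15 to 1.71, overlapped, and the difference between them was not tested.

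P4HB (protein disulfide isomerase itself, and also a subunit of prolyl 4-hydroxylase) stood at 12.13 and 12.20 in the lysates and at 12.87 and 12.85 in the IPs (probe set 200654_at). This rise was 1.62-fold (log2 change 0.70 ± 0.11 SE, limma adjusted p = 0.0010). Its other probe sets rose by 0.51 (200656_s_at) and 0.52 (1564494_s_at). With hybridization control centring the change was 0.22 and did not pass (adjusted p = 0.224).

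PDIA6 (P5) was the weakest of the 7 higher genes. It stood at 11.45 and 11.51 in the lysates and at 11.79 and 11.80 in the IPs (probe set 207668_x_at), a 1.24-fold difference (log2 change 0.31 ± 0.11 SE, limma adjusted p = 0.043). The call was lost without any 1 of the 4 arrays: the change was 0.28 without lysate replicate 1, 0.34 without lysate replicate 2, 0.31 without IP replicate 1 and 0.31 without IP replicate 2, at adjusted p of 0.0883 to 0.142. With no filter on low signals it was lost as well (adjusted p = 0.0984). Its sign turned to -0.17 with hybridization control centring (adjusted p = 0.336). Over probe sets, this one had an adjusted p of 0.0529 and only 216640_s_at, at 0.43, was called, while 208639_x_at and the unique 208638_at had changes of 0.32 and 0.17.

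PDIA3 (ERp57), the isomerase that works with CALR and CANX on glycoproteins, stood at 11.22 and 11.22 in the lysates and at 11.46 and 11.37 in the IPs (probe set 208612_at). The change of 0.20 had a 95% interval of -0.07 to 0.46 and did not pass (limma adjusted p = 0.168). Its probe set 227033_at had a change of 0.23 that did not pass, and 229453_at rose by 0.50 (adjusted p = 0.0117 over all probe sets). With the mean of its probe sets PDIA3 was called higher, at 0.31 (adjusted p = 0.0375).

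**Figure D3:**
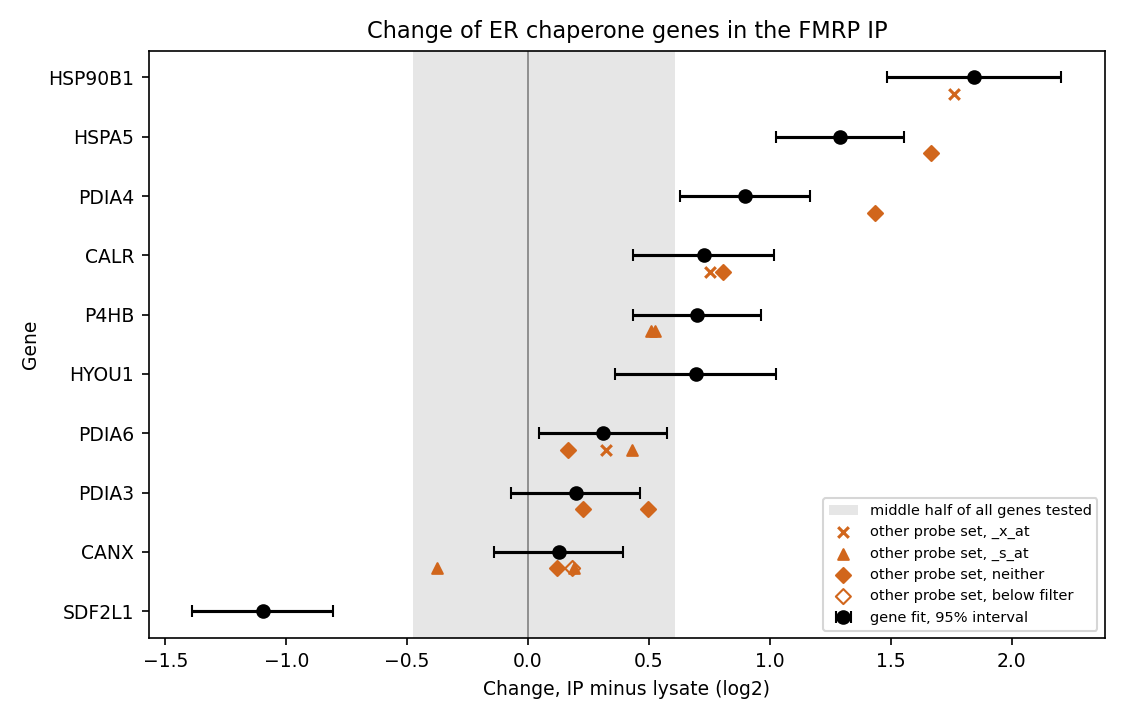
Change from lysate to IP (log2, horizontal axis) of the 10 genes (vertical axis, ordered by change): black points are the brightest probe set of each gene with its 95% interval from the gene fit, orange marks are the genes' other probe sets by class, and grey is the interquartile range of all genes tested. The black points of HSP90B1 (1.85), HSPA5 (1.29), PDIA4 (0.90), CALR (0.73), P4HB (0.70) and HYOU1 (0.69) lie above the grey band (upper edge 0.61), that of SDF2L1 (-1.10) lies below it, and CANX has 1 probe set below 0.

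Ordered by change, HSP90B1 was followed by HSPA5, PDIA4, CALR, P4HB, HYOU1, PDIA6, PDIA3, CANX and SDF2L1. The 95% intervals of neighbours in this order overlapped in each case except the last, where CANX (from -0.14) lay above SDF2L1 (up to -0.80). The interval of HSP90B1 (from 1.48) lay above those of PDIA4 and of all genes after it, the highest of which reached 1.17.

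The genes that work with these chaperones were counted next, in 6 lists of ER folding and quality control genes chosen with earlier results of these data known. Of 91 genes listed, 84 were tested, of which 27 were higher, 28 lower and 29 did not pass, 32.1% and 33.3% beside 35% and 28.8% of all genes. Their median change was -0.07, beside 0.08 over all genes. With hybridization control centring 16 were higher and 47 lower, where 15.9% and 48.5% of all genes were. These 15.9% and 48.5% also apply beside the centred counts of each list below.

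The glycoprotein folding cycle trims glucose from new glycoproteins and returns unfolded ones to CALR and CANX. Of its 7 genes, 5 were higher and none lower (71.4% and 0%, beside 35% and 28.8% of all genes). Their median was 0.66 (0.18 with hybridization control centring, with 3 higher and 1 lower). CLGN, a testis relative of CANX, rose by 1.35, from 9.27 and 8.73 to 10.38 and 10.32. MOGS, the first trimming glucosidase, rose by 1.30, and UGGT1, the folding sensor, by 1.03 (0.28 to 2.02 by its other probe sets). The other higher genes were UGGT2 (0.66) and GANAB (0.44), while PRKCSH (0.29) and MLEC (-0.28) did not pass; all but CLGN and MOGS were named after their values were seen. The other probe sets of UGGT2 ran from -1.91 to 0.92, and the 2 of them that passed the signal filter gave -1.91 and -1.62, opposite in sign to its brightest one.

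The other disulfide enzymes and oxidases ran against PDIA4 and P4HB. Of 15 tested, 10 were lower, 2 higher and 3 did not pass (66.7% lower and 13.3% higher, beside 28.8% and 35% of all genes). Their median was -0.63 (-1.11 with hybridization control centring, with 1 higher and 11 lower). ERO1A, the oxidase that recharges P4HB, stood at 9.78 and 9.80 in the lysates and 8.30 and 8.29 in the IPs, and was 2.82-fold higher in the lysate (limma adjusted p = 4.0e-05), while its other probe sets gave -0.31 and -0.25. TMX4, a membrane-bound isomerase, changed by -1.51, and its further probe sets gave -0.73 and 0.06, the latter below the signal filter and not tested. PRDX4 (0.04), PDIA2 (-0.12) and TXNDC11 (0.17) did not pass. ERP44, which retains ERO1A in the ER, changed by -1.34, and TXNDC12, a small luminal isomerase, by -1.31; both were named after their values were seen. QSOX2 and QSOX1, sulfhydryl oxidases of the later secretory pathway, were the higher genes, at 1.26 and 0.84. The second QSOX2 probe set gave 0.53. The further QSOX1 probe sets gave 0.44 and 0.24, the latter below the signal filter and not tested. QSOX1 did not pass with hybridization control centring (0.36).

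Of 14 genes for hydroxylases, prolyl isomerases and the collagen chaperone, 6 were higher, 4 lower and 4 did not pass. Their shares, 42.9% higher and 28.6% lower, stand beside 35% and 28.8% of all genes. The median was -0.06 (-0.53 with hybridization control centring, with 5 higher and 8 lower). P4HA2, a catalytic subunit that binds P4HB, stood at 8.56 and 8.68 in the lysates and 10.24 and 10.35 in the IPs, 3.20-fold higher in the IP. Its other probe sets gave 0.55 and -0.21, the latter below the signal filter and not tested. The paralog P4HA1, named after its value was seen, changed by -0.40. PLOD1, a lysyl hydroxylase, rose by 1.33, and the small prolyl isomerase genes FKBP2 and FKBP11 changed by -1.28 and -1.21. The remaining lower gene was PLOD2 (-0.94) and the other higher genes were PLOD3 (1.14), both lysyl hydroxylase genes, SERPINH1 (1.04), the collagen chaperone, and the prolyl isomerase genes FKBP10 (0.94) and FKBP9 (0.41), all named after their values were seen.

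Of 13 cochaperones and retrieval receptors tested, 3 were higher, 5 lower and 5 did not pass. That is 23.1% higher and 38.5% lower, beside 35% and 28.8% of all genes. Their median of 0.08 turned to -0.40 with hybridization control centring (1 higher and 6 lower). KDELR3 and KDELR1, receptors that return escaped luminal chaperones from the Golgi, changed by -1.91 and -1.56, with all their other probe sets also below 0. KDELR3 stood at 8.36 and 8.05 in the lysates and at 6.41 and 6.19 in the IPs. DNAJC1, an ER J-protein, rose by 1.21 (1.55 and 1.80 by its further probe sets), and SIL1, an exchange factor of HSPA5 like HYOU1, rose by 0.71, which did not pass with hybridization control centring (0.23).

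The partners of SDF2L1 were looked up after its fall was seen. DNAJB11, the J-protein of HSPA5 that binds SDF2L1, moved from 9.67 and 9.71 in the lysates to 8.92 and 8.83 in the IPs, a change of -0.81 (limma adjusted p = 5.2e-04). SDF2, the paralog of SDF2L1, moved from 7.51 and 7.46 to 8.02 and 8.11, a change of 0.58 (limma adjusted p = 0.0029). The paralogs thus lay on opposite sides of 0, each by a single probe set. MANF, a small luminal protein that binds HSPA5, changed by -0.78, and DNAJB9, another J-protein of HSPA5, by -1.44; they were the remaining lower genes of the list.

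Among 14 genes of the unfolded protein response itself, 3 were higher, 5 lower and 6 did not pass. The shares were 21.4% higher and 35.7% lower, beside 35% and 28.8% of all genes. Their median was -0.19 (-0.67 with hybridization control centring, with 1 higher and 9 lower). MBTPS1, the protease that makes the first cut in ATF6, stood at 8.92 and 8.86 in the lysates and 10.87 and 11.04 in the IPs, 4.19-fold higher in the IP (limma adjusted p = 3.4e-05), while a second probe set gave 0.52. MBTPS2, the protease of the second cut, changed by -1.11, and its further probe sets gave -0.72 and 0.31, the latter below the signal filter and not tested. XBP1, the transcription factor spliced by ERN1, changed by -1.11; its second probe set, at -0.02, was below the signal filter and not tested. The sensor gene ERN1 rose by 0.61, which did not pass with hybridization control centring (0.13) or with the mean of its probe sets (0.29). The others called, named after their values were seen, were TRIB3 (0.45) among the higher and CREB3L2 (-0.86), ATF4 (-0.77) and PPP1R15B (-0.62) among the lower genes. The second TRIB3 probe set gave -0.31, opposite in sign to the first. Those of CREB3L2 gave -0.16 and 0.18, the latter below the signal filter and not tested.

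Of 21 genes for ER-associated degradation tested, 8 were higher, 4 lower and 9 did not pass. The 38.1% higher and 19% lower stand beside 35% and 28.8% of all genes. Their median of 0.01 turned to -0.47 with hybridization control centring (5 higher and 12 lower) and to -0.04 with quantile normalization. VCP, the ATPase that pulls proteins out of the ER membrane, rose 3.14-fold (log2 change 1.65, and 1.67 by its second probe set). MAN1B1, a mannosidase that marks misfolded glycoproteins, rose by 1.20. The derlin genes DERL2 and DERL1, whose products form the exit channel, changed by -1.83 and -1.52. DERL3 and AUP1, named after their values were seen, were the remaining lower genes, at -0.63 and -0.57. The remaining higher genes, named likewise, were EDEM2 (1.10), SELENOS (0.93), UFD1 (0.88), NPLOC4 (0.82), ERLEC1 (0.59) and OS9 (0.49).

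The HSP90 and HSP70 genes outside the ER were set beside HSP90B1 and HSPA5. Of 9 tested, 7 were higher, none lower and 2 did not pass (77.8% higher and 0% lower, beside 35% and 28.8% of all genes). Their median was 1.19 (0.71 with hybridization control centring, with 7 higher and 1 lower). HSPA4 and HSPA2 rose by 1.32 and 1.30, and the other HSPA4 probe sets gave 0.50 to 1.72. The cytosolic HSP90 genes HSP90AA1 and HSP90AB1 and the mitochondrial TRAP1, named after their values were seen, rose by 0.90, 1.19 and 1.21 (0.23 by the second TRAP1 probe set, below the signal filter), while the ER paralog HSP90B1 rose by 1.85. HSPA4L (0.07) and HSPA14 (-0.09) did not pass. Whether these changes differ from each other was not tested.

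**Figure D4:**
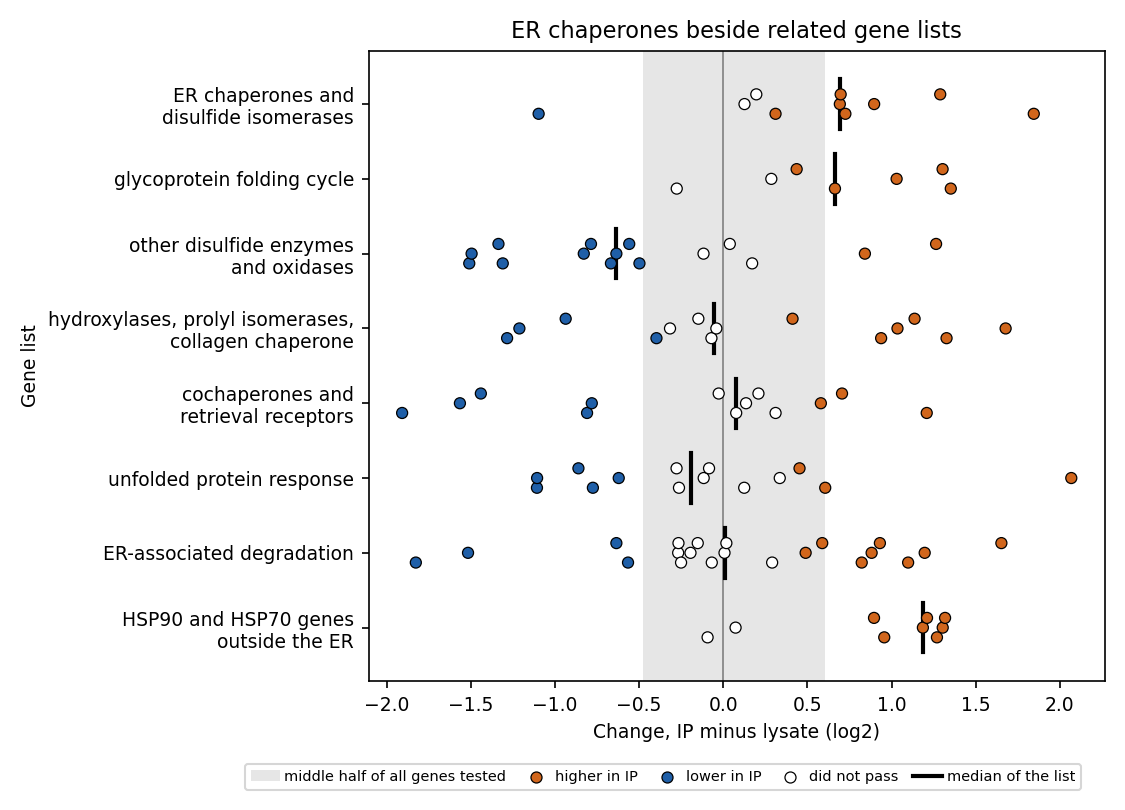
Change from lysate to IP (log2, horizontal axis) of the 10 ER chaperone genes and of 7 related gene lists (vertical axis), with 1 point per gene, coloured by call, a bar at the median of each list, and the interquartile range of all genes tested in grey. The medians of the ER chaperones (0.70), the glycoprotein folding cycle (0.66) and the HSP90 and HSP70 genes outside the ER (1.19) lie above the grey band, and that of the other disulfide enzymes (-0.63) lies below it.

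Of the related genes with a promoter window, ERSE was found in XBP1 and ERO1B and ERSE-II in HERPUD1. UPRE was found in TXNDC5, TXNDC11, DNAJC10, KDELR3, UBE2J1 and VCP. Among all genes tested with a window, the 15 with ERSE had a median change of 0.13, and 7 of them were higher and 4 lower. The 16 with ERSE-II had a median of 0.39, with 8 higher and 4 lower. The 125 with UPRE had a median of 0.02, with 47 higher and 36 lower. The 10620 without ERSE, the 10619 without ERSE-II and the 10510 without UPRE each had a median of 0.08. Of all 13157 genes tested, 35% were higher and 28.8% lower. The counts of genes with an element include the chaperone genes that hold it. HSP90B1, HSPA5, CALR and PDIA6 are among the 7 higher genes with ERSE. The members with ERSE ran from CANX (0.13) to HSP90B1 (1.85), and the members with ERSE-II were HYOU1 (0.69) and SDF2L1 (-1.10).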

How the data were processed

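RNA of 2 lysates and 2 FMRP IPs was measured on 4 Affymetrix Human Genome U133 Plus 2.0 arrays, from 2 µg of biotin-labelled RNA each, per the labels' protocols. The authors deposited normalized signals per probe set, taken as log2 from their range of values; how background was corrected and probes summarised is not stated in the labels, and near-equal array medians (4.67 to 4.71) show scaling between arrays. The platform annotation gave 1 gene symbol to 41091 of 54675 probe sets. Probe sets with 1 symbol and a mean of at least 4.70 were kept (23516). For each of 13157 genes the brightest of these stood for the gene. The IP and lysate arrays were compared with limma 3.58.1 (R 4.3.3; lmFit, eBayes, no covariate, 2 residual degrees of freedom). P-values were adjusted by Benjamini-Hochberg over all genes, or over all probe sets where stated, and a threshold of 0.05; the fit was tested on simulated data. All members are named, as are, in each list, up to 2 called genes without overlap between groups that rose most and 2 that fell most, and others where stated. Members and lists were chosen with earlier results of these data known. Of the other listed genes not tested, PDIA5, TXNDC5, KDELR2, SYVN1, HSPA8 and HSPA1A have no probe set of their own here, and ERP27 and HSPA13 lay below the filter; 1 more is not reported here. Figures used matplotlib 3.10.9 and pandas 2.3.3.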

Additional observations from a re-analysis of the deposited data

How the results depend on the processing

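The 10 member changes kept their sign under every alternative run except hybridization control centring, where PDIA6 (-0.17), PDIA3 (-0.28) and CANX (-0.35) turned negative without passing. That centring moved the counts to 3 chaperone genes and 6 chaperone probe sets higher, the chaperone median to 0.22, the other ER genes to 16 higher and 47 lower, and all genes to 2090 higher and 6385 lower. Without _x_at and _s_at probe sets 7 chaperone genes remained measured, 4 higher and 0 lower by limma (6 chaperone probe sets higher, 0 lower). HSP90B1, HYOU1 and SDF2L1 have no unique probe set among the members, and PDIA6 was lost (0.17, limma adjusted p = 0.267). The mean of probe sets gave a chaperone median of 0.63 and 8 genes higher, PDIA3 being added. Over all genes the main run gave 4611 higher and 3790 lower, and the mean of probe sets 4531 and 3877. Without _x_at and _s_at probe sets, where fewer genes were tested, these were 3405 and 2906. They were 4448 and 3618 with no filter, where more genes were tested, and 3686 and 3133 at a threshold of 0.01. The lower chaperone probe sets numbered 1 with no filter, at a threshold of 0.01 and with any array left out. With arrays left out in turn, the chaperone median ran from 0.59 to 0.76, and 6 chaperone genes were higher in each case, PDIA6 being lost. Quantile normalization, the stricter filter and the variance trend left 7 higher and 1 lower; no filter and a threshold of 0.01 left 6 higher, without PDIA6, and 1 lower. The replicate numbers are not stated to mark a shared culture; deviations of same-numbered arrays correlated at 0.10 across genes, and with the replicate number as a block 7 chaperone genes were higher and 1 lower, with PDIA6 at an adjusted p of 0.0458. Low signals have no known floor on these arrays.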
